A study of Mus musculus with 6 samples.

Results

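The genes described here encode the nuclear subunits of respiratory complexes II to V and cytochrome c, measured as RNA in the lumbar spinal cord of mice that had received saline or morphine. They were chosen by symbol: Sdha, Sdhb, Sdhc and Sdhd for complex II, Cyc1 and names starting with Uqcr for complex III, Cycs for cytochrome c, names starting with Cox4 to Cox8 for complex IV, and names starting with Atp5 for complex V. Atp5s, Atp5sl and annotated pseudogenes were left out. The rule found 47 of the 52513 genes in the table, of which 4 belonged to complex II, 9 to complex III, 18 to complex IV, 15 to complex V and 1 was Cycs. All 47 were annotated as protein coding and lay on 19 chromosomes. The mice of both groups were wild type, and the spinal segments taken were L4 and L5. One group received saline by intrathecal injection and the other morphine (10 µg in 10 µL), in both cases over 7 days, and each group had 3 libraries. The sources used here give no strain, sex or age, and no number of animals behind a library. In each group the library descriptions carry 3, 3 and 2 running numbers, and whether these mark pooled animals is not stated. The p-values therefore measure the spread between these libraries, which may be partly technical.

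The respiratory chain lies in the inner mitochondrial membrane. Complex II, succinate dehydrogenase, hands electrons from the citric acid cycle to ubiquinone, complex III hands them on to cytochrome c, and complex IV, cytochrome c oxidase, gives them to oxygen. Complexes III and IV pump protons as they do so, and complex V, the ATP synthase, uses the proton gradient to make the ATP on which neurons depend. All subunits of complex II are nuclear encoded, whereas complexes III, IV and V combine nuclear subunits with a few encoded in mitochondrial DNA. The expression values used here include no mitochondrially encoded gene, so those genes could not be analysed.

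The values are FPKM, fragments counted on a gene divided by a transcript length and by the mapped fragments of the library. The spacing of the lowest values fitted a length reduced by the mean fragment length, estimated at 216 to 221 nt. The depth, inferred from the spacing of the lowest values, ranged from 17.9 to 26.1 M fragments per library. The columns summed to between 662470 and 670280 FPKM after saline and between 720234 and 741145 FPKM after morphine. Within each group the libraries differed in markers of motor and cholinergic neurons. The 10 genes of that list summed to 186, 168 and 52.1 FPKM in saline 1, 2 and 3 and to 67.1, 167 and 39.1 FPKM in morphine 1, 2 and 3. Morphine 2 thus lay with saline 1 and saline 2 in this respect. Among the 45 members tested, morphine 2 had the lowest value of its group in 27 and saline 2 the lowest of its group in 30. Red cell genes were lower after morphine, with sums of 757 to 1077 FPKM after saline and 421 to 595 FPKM after morphine, and Hbb-bt, a beta globin, fell from 65.9 to 27.9 FPKM (limma adjusted p = 0.0453). Their part in the results below was not tested.

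Most of the subunit genes had somewhat more RNA after morphine, and the change was small. Of the 45 members tested, 41 had a positive log2 fold change, against 46.9% of all 14614 tested genes. The median log2 fold change was 0.21 in the members and -0.015 in all tested genes. In 29 members every morphine library lay above every saline library, against 13% of tested genes, and 28 had an unadjusted p under 0.05 in the higher direction, against 11.2% of tested genes. At an adjusted p under 0.05 in limma, 6 members rose (Uqcrq, Uqcrh, Uqcr10 and Uqcr11 of complex III, Cox6c of complex IV and Atp5l of complex V), and the share of all tested genes that rose was 0.944%. One member fell, Sdha, the flavoprotein of complex II, while 0.561% of all tested genes fell. Another 22 members had an unadjusted p under 0.05 and did not pass, with adjusted p between 0.0506 and 0.196 in limma.

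The size of the rise depended on how the libraries were scaled. When each column was rescaled to the same total (TPM), the median of the members became 0.079 and that of all tested genes -0.13, 1 member rose and Sdha fell, and 30 of the 45 members stayed positive. Across all tested genes that scaling gave 101 higher and 853 lower calls, in place of 138 and 82. Quantile normalization brought the median of the members to 0.041, with 32 members positive, none passing as higher and Sdha lower, and 47 higher and 55 lower calls across all tested genes. With each library centred on its median, 22 members were higher and 1 lower, with 518 higher and 144 lower calls across all tested genes. The difference between the medians of members and of all tested genes was 0.22 in log2 units with the deposited values, 0.21 after TPM scaling and 0.050 after quantile normalization. Leaving out morphine 2 gave 16 members higher and 1 lower, and 531 higher and 274 lower calls across all tested genes. Leaving out any other single library gave no member in either direction, and 0 to 4 higher and 1 to 4 lower calls across all tested genes. No member passed either way without the filter on low values or without the intensity trend in limma, and 1 rose and none fell with the replicate number as a block. Across all tested genes, higher and lower calls in these settings numbered 6 and 2, 14 and 22, and 17 and 7. In simulated libraries of the same spread, limma recovered 11.2% of genes changed 1.25-fold and 54.8% of genes changed 1.5-fold. The changed genes were drawn from all tested genes, with noise independent between genes, so these rates are not specific to the members. In bulk tissue, a lower share of cells of one kind and less RNA per cell cannot be told apart.

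**Figure D1:**
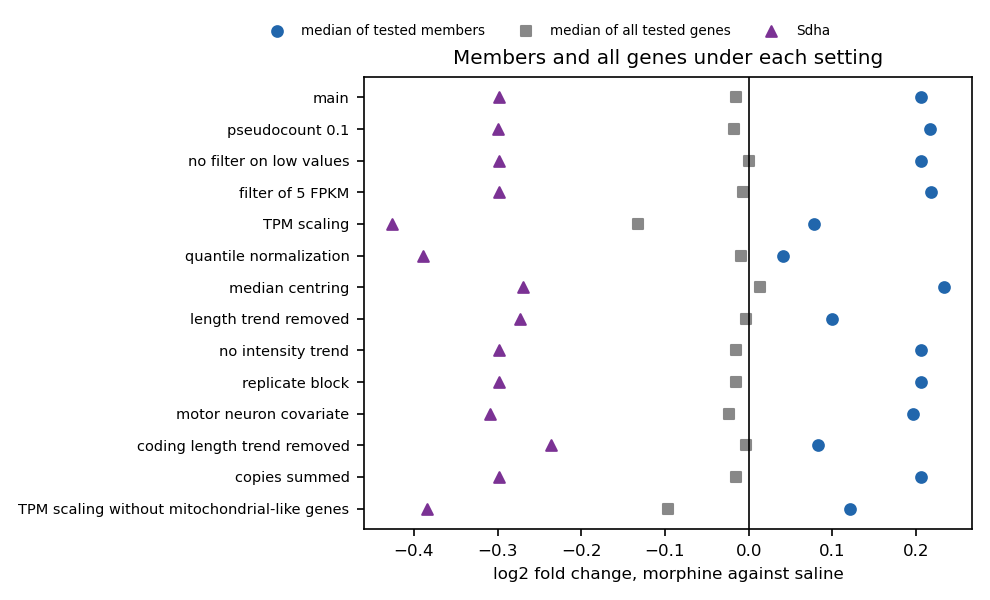
Median log2 fold change, morphine against saline, of the tested members (circles) and of all tested genes (squares), with the value of Sdha (triangles), under the deposited scaling and each other setting that keeps all 6 libraries. The median of the members lay between 0.041 and 0.23 and above that of all tested genes in each setting, and Sdha lay between -0.43 and -0.24.

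Transcript length moved with the fold change. Across the 14588 tested genes with an annotated exonic length, Spearman's rho between log2 fold change and length was -0.31, and across the 45 members it was 0.0088. With coding length it was -0.29 over 12908 genes and -0.42 over the members, whose median coding length was 387 nt against 1389 nt in all tested genes with a coding sequence. Genes share libraries and are not independent replicates, so these are descriptions. Removing the trend on exonic length per library left a median of 0.099 in the members with 1 member higher, and removing the trend on coding length left 0.083 with none. The 6 members that rose then had log2 fold changes of 0.044 to 0.24 (limma adjusted p of 0.0908 or more), in place of 0.27 to 0.42. Members with higher RNA levels also had higher fold changes, with rho 0.60 over the 45 members and 0.16 over all tested genes.

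The members' levels divided into 40 genes from 77.8 to 1777 FPKM and 7 low isoforms. Because FPKM is per length, levels can be set side by side between genes. In the mean over the 6 libraries 39 of the 47 members were at 100 FPKM or more, 1 (Atp5e) was at 77.8 FPKM, and 7, all isoforms of complex IV, were under 20 FPKM. The median member of complex II was at 132 FPKM, that of complex III at 330 FPKM, that of complex IV at 387 FPKM and that of complex V at 409 FPKM. Without its 7 low isoforms, the median of complex IV was 569 FPKM. Atp5b, which encodes the catalytic beta subunit of ATP synthase, was the member with the highest level, at 1777 FPKM, and ranked 15 in the whole table. Summed over the 47 members, the RNA came to 17312, 16591 and 16989 FPKM after saline and 20316, 19293 and 20200 FPKM after morphine. As a share of each library's total this was 2.61%, 2.48% and 2.56% for saline and 2.74%, 2.67% and 2.80% for morphine, so the groups did not overlap on either scale.

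Complex II held the member that fell. Sdha, which holds the flavin and oxidizes succinate, was at 204, 198 and 201 FPKM after saline and at 158, 161 and 171 FPKM after morphine. Its morphine values all lay below its saline values, by 18.7% in the mean, and its log2 fold change was -0.30 with a standard error of 0.05 (limma adjusted p = 0.0465). Sdha lies on the minus strand of chromosome 13 from 74322254 to 74350280 (mm10). It has up to 15 exons in an annotated transcript and a coding length of 1992 nt, and shares no exonic base with another annotated gene. Its log2 fold change stayed negative in every setting, from -0.24 to -0.43. It no longer passed when either length trend was removed (adjusted p = 0.0570 and 0.0765 in limma) or with the replicate number as a block (adjusted p = 0.0580). The same held without the filter on low values (adjusted p = 0.0992), without the intensity trend (adjusted p = 0.0884), and when any library other than morphine 2 was left out.

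Sdhb, the iron-sulfur subunit that takes electrons from Sdha, was at 142, 137 and 142 FPKM after saline and 159, 147 and 156 FPKM after morphine. Sdhc, one of the membrane anchors, was at 105, 109 and 110 FPKM after saline and 117, 120 and 142 FPKM after morphine. In both genes all morphine values lay above all saline values, and neither passed (limma adjusted p = 0.196 and 0.176). Sdhd, the other anchor, was at 103, 101 and 103 FPKM after saline and 96.9, 102 and 110 FPKM after morphine, with groups that overlapped and a log2 fold change of 0.0058 that turned to -0.12 after TPM scaling. The median log2 fold change of the 4 genes was 0.071, and -0.057 after TPM scaling.

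The ratio of 2 genes within a library does not change when the whole library is multiplied by a common factor, as in TPM scaling. Quantile normalization is not such a factor and can change it. Sdha to Sdhb was 1.44, 1.45 and 1.42 after saline and 0.994, 1.10 and 1.10 after morphine. The ratio was lower in every morphine library, and its mean after morphine was 0.740 of that after saline. It can still carry a trend with length. With the coding length trend removed, the log2 fold change of Sdha minus that of Sdhb was -0.36, in place of -0.43. For the other 4 pairs given below, these differences were 0.19 in place of 0.42 (Uqcrq and Uqcrc2), 0.19 in place of 0.20 (Cox6c and Cox6b1), 0.099 in place of 0.38 (Atp5e and Atp5a1) and -0.033 in place of 0.17 (Atp5l and Atp5a1), the last with its sign turned. The pairs were chosen after the values were seen and are descriptions. With 3 against 3 libraries, an exact permutation test cannot give a p below 0.1.

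Complex III held 4 of the 6 members that rose. All 4 encode small accessory subunits of the cytochrome bc1 complex. Uqcrq (subunit VIII) was at 342, 311 and 313 FPKM after saline and 459, 413 and 425 FPKM after morphine, that is 322 ± 17.3 and 432 ± 23.5 FPKM (SD, n = 3). The groups were well apart, the log2 fold change was 0.42 with a standard error of 0.06 (limma adjusted p = 0.0456), and Uqcrq was the member that also passed with TPM scaling (adjusted p = 0.0407) and with the replicate number as a block (adjusted p = 0.0459). It did not pass with the exonic or the coding length trend removed (log2 fold change 0.33 and 0.24, adjusted p = 0.0615 and 0.0908). Uqcrh, the acidic hinge protein next to cytochrome c1, was at 664, 625 and 622 FPKM after saline and 775, 776 and 801 FPKM after morphine, a log2 fold change of 0.30. Uqcr10 rose from 459 ± 8.89 to 564 ± 22.7 FPKM and Uqcr11 from 482 ± 10.6 to 582 ± 14.5 FPKM (SD, n = 3), with log2 fold changes of 0.30 and 0.27 (limma adjusted p = 0.0463 for Uqcrh, 0.0465 for Uqcr10 and 0.0476 for Uqcr11). In none of the 4 did the groups overlap. Over all tested genes 0.944% rose, and 13% had groups apart with morphine higher.

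The remaining complex III genes showed less difference. Uqcrb, a small subunit near the ubiquinone site, was at 301 ± 14.9 FPKM after saline and 358 ± 20.9 FPKM after morphine, and Uqcrfs1, the Rieske iron-sulfur protein that moves electrons to cytochrome c1, was at 140 ± 0.773 and 157 ± 1.66 FPKM (SD, n = 3). Both had groups that did not overlap and did not pass (limma adjusted p = 0.0847 and 0.0850). Cyc1, cytochrome c1 itself, and Uqcrc1 and Uqcrc2, the large core proteins on the matrix side, had log2 fold changes of 0.081, 0.074 and 0.0066 with overlapping groups. For these 3 the sign turned negative after TPM scaling and after quantile normalization (-0.12 and -0.080 for Uqcrc2). The 5 small subunits have coding lengths of 168 to 333 nt and the other 4 of 822 to 1440 nt. Their log2 fold changes ran from 0.25 to 0.42 and from 0.0066 to 0.17, without overlap. With the coding length trend removed they ran from 0.044 to 0.24 and from 0.044 to 0.15, so that the 2 sets overlapped and none of the 9 passed. Uqcrq to Uqcrc2, a ratio within each library of the deposited values, was 2.22, 2.11 and 1.98 after saline and 3.04, 2.69 and 2.70 after morphine, higher in each morphine library.

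**Figure D2:**
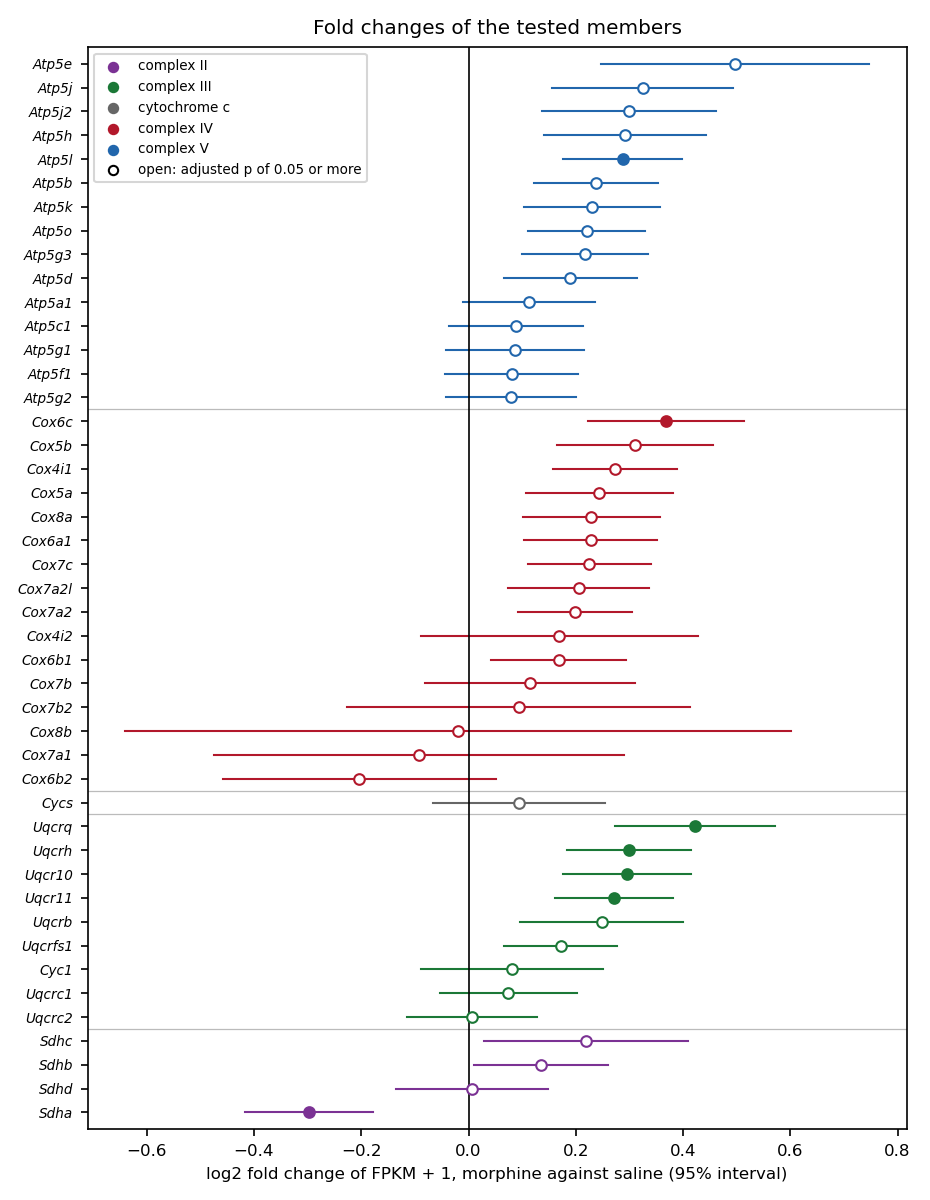
Log2 fold change of FPKM + 1 after morphine against saline for the 45 tested members, with the 95% interval from limma, grouped by complex and ordered by size, filled where the adjusted p was under 0.05. Most points lie between 0.1 and 0.4, Sdha lies at -0.30, and the widest intervals are those of Cox8b, Cox7a1 and Cox7b2.

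Cycs, the mobile carrier between complexes III and IV and a trigger of apoptosis once released from mitochondria, was at 106, 104 and 116 FPKM after saline and 111, 113 and 124 FPKM after morphine. The groups overlapped and the log2 fold change was 0.094 (limma adjusted p = 0.456), which became -0.034 after TPM scaling. Its annotated copy Gm10053 holds the whole coding sequence of Cycs and was itself listed at 79.5 FPKM after saline and 87.0 FPKM after morphine, so the level of Cycs depends on how the fragments of both were shared out.

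Complex IV held the widest range of levels. Cox6c, a small subunit that spans the membrane once, was at 1058, 986 and 1071 FPKM after saline and 1418, 1266 and 1341 FPKM after morphine. It rose by 29.2% in the mean, with groups that did not overlap and a log2 fold change of 0.37 with a standard error of 0.06 (limma adjusted p = 0.0465). Cox4i1, the subunit through which ATP is thought to restrain the enzyme, was at 1057 ± 35.1 FPKM after saline and 1278 ± 29.8 FPKM after morphine (SD, n = 3). Its groups did not overlap and it lay just outside the threshold (log2 fold change 0.27, limma adjusted p = 0.0506).

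The other common subunits of complex IV had positive log2 fold changes and did not pass. Cox8a rested at 841, 807 and 873 FPKM after saline and 981, 949 and 1025 FPKM after morphine, and Cox6a1 at 775, 744 and 763 against 845, 909 and 921 FPKM. Both had groups that did not overlap and log2 fold changes of 0.23 that did not pass (limma adjusted p = 0.0739 and 0.0692). Cox5a and Cox5b, which face the matrix, and the membrane subunits Cox7a2 and Cox7c had log2 fold changes of 0.24, 0.31, 0.20 and 0.23, again with groups that did not overlap. Cox7a2l, which helps join complexes III and IV into supercomplexes, was at 138 ± 6.24 and 159 ± 5.04 FPKM (SD, n = 3). Cox6b1, which faces the intermembrane space, had a log2 fold change of 0.17, and its sign turned after quantile normalization. Cox7b was at 413 ± 19.9 FPKM after saline and 448 ± 45.5 FPKM after morphine with overlapping groups (log2 fold change 0.11), and its sign turned after TPM scaling and after quantile normalization. Of the 11 complex IV genes above 20 FPKM, 10 had groups that did not overlap, with morphine higher, and 1 passed. Over all tested genes these shares were 13% and 0.944%. Cox6c to Cox6b1 within a library was 1.91, 1.84 and 2.08 after saline and 2.26, 2.17 and 2.25 after morphine, with no overlap.

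In complex IV, 6 subunits come in tissue isoforms, and in each set the ubiquitous form made up nearly all of the RNA. Cox4i2, the form known from lung and from oxygen-sensing cells, made up 0.27% of the Cox4 RNA after saline and 0.26% after morphine. Cox6a2, a heart and muscle form, made up 0.02% and 0.03% of its set. Cox7a1, also of heart and muscle, made up 4.04% ± 0.967 of the Cox7a RNA after saline and 3.27% ± 0.305 after morphine (SD, n = 3). Cox8b, the third muscle form, made up 0.47% and 0.40% of the Cox8 RNA. The testis forms Cox6b2 and Cox7b2 made up 1.56% and 1.19%, and 0.37% and 0.38%, of their sets after saline and morphine, and Cox8c was listed at 0 in all 6 libraries. Paired with their ubiquitous forms, the coding sequences were 45.9% to 63.8% identical.

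None of the low isoforms passed, and their log2 fold changes had both signs. Cox7a1 was at 19.5, 13.0 and 12.6 FPKM after saline and 14.5, 12.5 and 14.3 FPKM after morphine, with saline 1 apart from the other 5 libraries, which overlapped. Without saline 1 its log2 fold change was 0.099 in place of -0.092. Cox6b2 was at 8.46, 7.79 and 9.11 FPKM after saline and 6.99, 6.38 and 8.34 FPKM after morphine, with a log2 fold change of -0.20 that did not pass (limma adjusted p = 0.317). Its share of the Cox6b RNA was 1.50%, 1.43% and 1.74% after saline and 1.10%, 1.08% and 1.38% after morphine, lower in each morphine library.

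Cox8b was at 4.16, 4.99 and 2.58 FPKM after saline and 3.00, 5.74 and 2.94 FPKM after morphine. Its 3 higher values were those of saline 1, saline 2 and morphine 2, the libraries in which motor neuron markers were also high, and the link was not tested. These values rest on about 8 to 18 fragments per library, and the 95% Poisson interval of the 8 fragments in saline 3 runs from 3.45 to 15.8 (counting error only). Cox4i2 was between 2.75 and 3.81 FPKM and Cox7b2 between 1.17 and 2.00 FPKM, with overlapping groups and log2 fold changes of 0.17 and 0.093. Cox6a2 had 0.42 FPKM in saline 2, 0 in the other saline libraries and 0.11, 0.37 and 0.23 FPKM in morphine 1, 2 and 3, at most about 5 fragments, and was not tested. For Cox8c, a count of 0, taken to allow 3 fragments, allows a level of up to 0.483 to 0.702 FPKM, depending on the library (counting error only). Markers of skeletal muscle were low throughout: the list of 10 genes summed to between 5.38 and 8.91 FPKM, with Ckm, the muscle creatine kinase, at 0.30 FPKM or less.

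**Figure D3:**
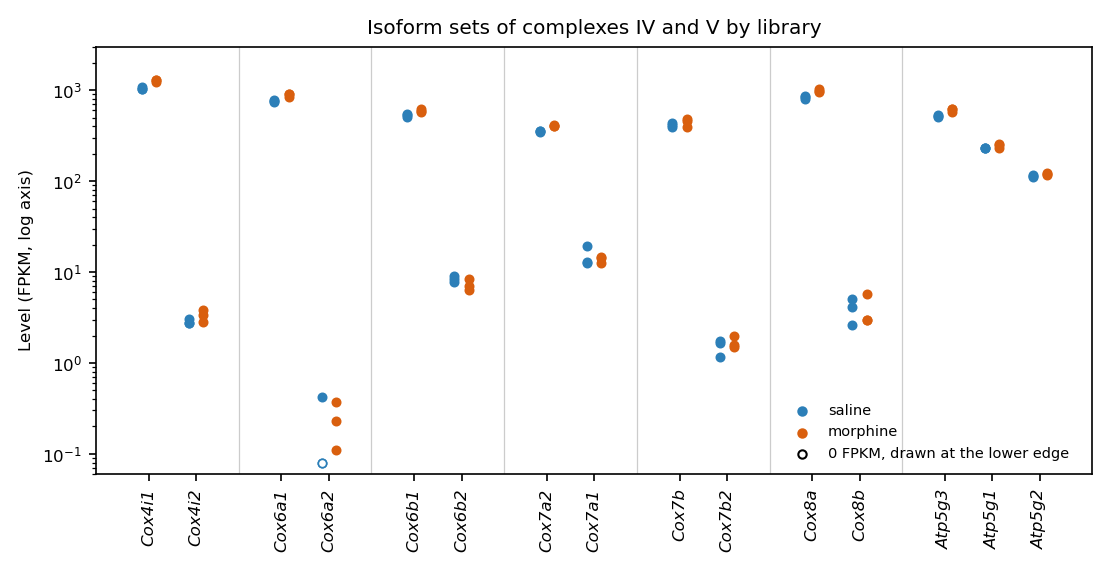
FPKM (log axis) by library of the isoform sets of complex IV (ubiquitous form first) and of the 3 genes for subunit c of ATP synthase, saline in blue and morphine in orange, with open circles for values of 0. The second form of each complex IV pair lies far below the first, whereas Atp5g3, Atp5g1 and Atp5g2 lie within a few-fold of each other.

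Complex V held the member with the highest level, Atp5b. All its 15 genes had positive log2 fold changes with a median of 0.22 (5 turned negative after TPM scaling), 11 had groups that did not overlap, and 1 passed. Over all tested genes 46.9% were positive, 13% had groups apart with morphine higher, and 0.944% rose. In the catalytic head, Atp5b, the beta subunit, was at 1658, 1628 and 1605 FPKM after saline and 2006, 1869 and 1898 FPKM after morphine. The groups were apart, with a log2 fold change of 0.24 that did not pass (limma adjusted p = 0.0593). Atp5a1, the alpha subunit, was at 449, 442 and 460 FPKM after saline and 477, 472 and 512 FPKM after morphine, a log2 fold change of 0.11. Atp5c1, the gamma shaft, was at 283 ± 10.7 and 301 ± 10.3 FPKM and Atp5d, the delta subunit, at 275 ± 11.1 and 313 ± 8.70 FPKM (SD, n = 3). The signs of Atp5a1 and Atp5c1 turned after TPM scaling and after quantile normalization, whereas those of Atp5b and Atp5d did not.

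Atp5e, the small epsilon subunit at the foot of the shaft, had the widest relative difference in the complex and its lowest level. It was at 66.2, 58.3 and 68.3 FPKM after saline and 104, 79.8 and 90.9 FPKM after morphine. The 3 morphine values lay above the 3 saline values and differed from each other by more than the saline values did. The log2 fold change was 0.50 with a standard error of 0.11 (limma adjusted p = 0.0616). Atp5e to Atp5a1 within a library was 0.148, 0.132 and 0.149 after saline and 0.217, 0.169 and 0.177 after morphine.

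In the membrane part and the stalk, Atp5l rose. It encodes subunit g, which with subunit e (Atp5k) helps pair ATP synthases along the cristae. Atp5l was at 622, 602 and 605 FPKM after saline and 748, 721 and 763 FPKM after morphine, with groups well apart and a log2 fold change of 0.29 with a standard error of 0.05 (limma adjusted p = 0.0463). With the trend on exonic length removed its log2 fold change was 0.35 (adjusted p = 0.0464), with the trend on coding length removed 0.13 (adjusted p = 0.157), and after TPM scaling 0.16 (adjusted p = 0.0862). Atp5k was at 663 ± 29.9 FPKM after saline and 778 ± 24.6 FPKM after morphine (SD, n = 3), a log2 fold change of 0.23 that did not pass (limma adjusted p = 0.0712). Atp5l to Atp5a1 within a library was 1.39, 1.36 and 1.32 after saline and 1.57, 1.53 and 1.49 after morphine, higher in each morphine library, and with the coding length trend removed Atp5l no longer lay above Atp5a1 in fold change.

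The other stalk and membrane subunits differed among themselves. Atp5h (subunit d), Atp5j (coupling factor F6) and Atp5j2 (subunit f) had log2 fold changes of 0.29, 0.32 and 0.30, with groups that did not overlap and limma adjusted p of 0.0648, 0.0647 and 0.0683. Atp5o, the protein that ties the stalk to the head, was at 378 ± 8.70 and 441 ± 9.34 FPKM (SD, n = 3), a log2 fold change of 0.22. Atp5f1, subunit b of the stalk, was at 325 ± 10.2 and 344 ± 13.6 FPKM (SD, n = 3) with overlapping groups. Its log2 fold change was 0.081 and turned negative after TPM scaling and after quantile normalization.

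**Figure D4:**
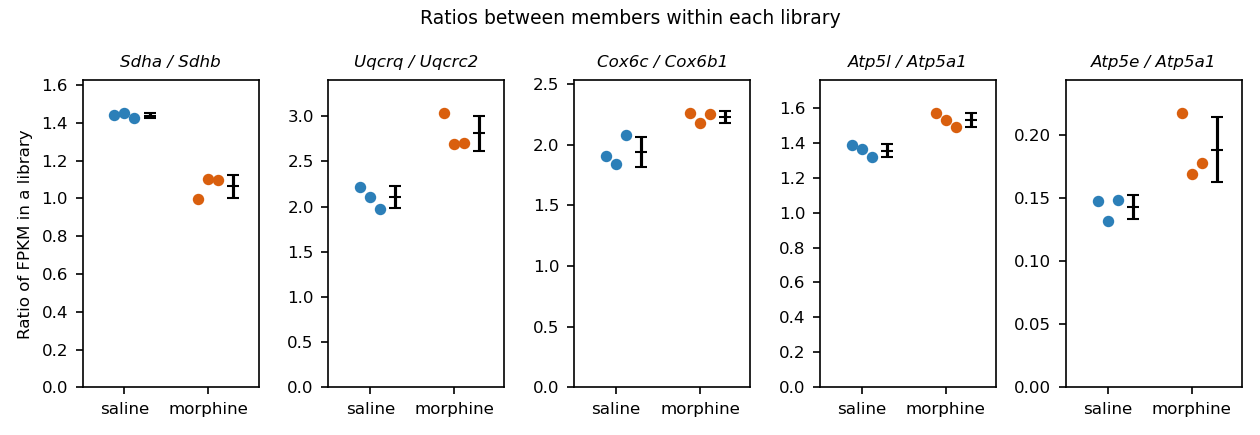
Ratios of FPKM between pairs of members within each library (points, with bars for mean ± SD of 3 libraries), which do not change when a library is multiplied by a common factor. Sdha to Sdhb is lower in all 3 morphine libraries, and Uqcrq to Uqcrc2, Cox6c to Cox6b1, Atp5l to Atp5a1 and Atp5e to Atp5a1 are higher in all 3.

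Subunit c, which forms the rotating ring in the membrane, is made from Atp5g1, Atp5g2 and Atp5g3. The mature protein is the same from each gene, and the genes differ in their targeting peptides and in silent positions. To show how far apart the RNAs are, 90 bases from the shared end of the 3 coding sequences (GENCODE M21) are given 5′ to 3′, with the 22 positions at which they are not all alike in capitals:
Atp5g1: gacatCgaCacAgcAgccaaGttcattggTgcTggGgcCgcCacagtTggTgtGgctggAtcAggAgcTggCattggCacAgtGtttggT
Atp5g2: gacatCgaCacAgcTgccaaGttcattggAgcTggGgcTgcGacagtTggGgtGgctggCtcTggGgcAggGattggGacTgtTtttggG
Atp5g3: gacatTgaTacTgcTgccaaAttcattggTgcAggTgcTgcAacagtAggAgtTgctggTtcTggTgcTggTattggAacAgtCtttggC
Over the last 225 coding bases, Atp5g2 was 84.9% and Atp5g3 80% identical to Atp5g1, and over the whole coding sequence the 3 pairs were 65.0% to 67.1% identical.

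Among the 3 genes taken alone, Atp5g3 had the most subunit c RNA. It made up 60.3%, 59.6% and 60.4% of the set after saline and 62.2%, 60.8% and 63.9% after morphine, higher in each morphine library. Atp5g1 made up 26.8% ± 0.418 and 25.4% ± 1.37, and Atp5g2 13.1% ± 0.321 and 12.3% ± 0.601 (SD, n = 3). These shares leave out the near-identical copies described below, and depend on how fragments were shared out with them. After saline the copies summed to 89.1 FPKM for Atp5g1 and 76.4 FPKM for Atp5g2, and the search found none for Atp5g3. In level, Atp5g3 was at 532, 512 and 528 FPKM after saline and 618, 583 and 626 FPKM after morphine, with groups apart and a log2 fold change of 0.22 (limma adjusted p = 0.0690). Atp5g1 (0.087) and Atp5g2 (0.079) had overlapping groups, and both turned negative after TPM scaling.

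Many of these genes have near-identical copies elsewhere in the genome. A search of their coding sequences against the annotated transcripts found copies of at least 90% identity over at least 80% of the length for 20 members, 62 copies in all, of which 19 were at 1 FPKM or more. In saline, the copies held 42.3% of the summed FPKM for Cycs, 40.2% for Atp5g2, 27.6% for Atp5g1, 23.2% for Cox7c, 16.2% for Atp5h and 9.41% for Atp5l, and over 5% for 11 members. Fragments from such a pair cannot be told apart where the sequence is the same, so these levels are uncertain. For Cox7c the copy Gm12338 holds all 189 coding bases (start codon in capitals, stop codon not included), and it was listed at 204 FPKM after saline and 257 FPKM after morphine:
Cox7c: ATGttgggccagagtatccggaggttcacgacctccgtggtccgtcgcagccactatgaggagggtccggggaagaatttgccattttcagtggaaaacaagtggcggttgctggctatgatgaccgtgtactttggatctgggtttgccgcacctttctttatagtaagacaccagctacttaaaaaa
Atp5l likewise has Gm10221, which holds its whole coding sequence and went from 57.7 to 81.1 FPKM. With each member and its copies summed, the same 6 members rose and Sdha fell, and Atp5l had a log2 fold change of 0.31 in place of 0.29.

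The promoters of these genes are known for sites of NRF1 and of GABP, the factors that drive nuclear respiratory genes. RefSeq (GRCm38.p6) gave a window from 250 bases before to 50 after the start site for 36 members and 27025 genes in all, and 3 motifs were searched on both strands. The GABPA motif CCGGAAG was found in 12 of the 36 members (33.3%) against 9.93% of all windows, the NRF1 motif GCGCATGC in 8 (22.2%) against 3.05%, and the YY1 motif AAGATGGC in 3 (8.33%) against 3.19%. Matches of NRF1 on both strands can overlap at 1 place, as they do in Cox6a1. A match is a description of the letters and not evidence of binding. Of the 6 members that rose, Uqcrh, Uqcr11 and Atp5l held a GABPA motif, and Uqcr11 and Atp5l also held an NRF1 motif. Stretches of 60 bases of these 3 and of Cox6a1 are given 5′ to 3′ on the gene's strand (minus in each), with motifs or their reverse complements in capitals, so that GABPA reads CCGGAAG or CTTCCGG and NRF1 reads GCGCATGC or GCATGCGC. They lie at chr4:116075071-116075130, chr10:80406838-80406897, chr9:44920933-44920992 and chr5:115349071-115349130:
Uqcrh: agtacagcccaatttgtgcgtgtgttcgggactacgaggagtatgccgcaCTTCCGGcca
Uqcr11: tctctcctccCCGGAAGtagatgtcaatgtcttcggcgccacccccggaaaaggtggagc
Atp5l: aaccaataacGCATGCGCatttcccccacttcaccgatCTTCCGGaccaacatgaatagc
Cox6a1: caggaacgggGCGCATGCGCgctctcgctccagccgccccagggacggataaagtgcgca
The GABPA motif also stood in Sdhd, and both motifs in Sdhb, neither of which passed. No match was found for Sdha, which fell, or for Uqcrq, Uqcr10 and Cox6c, which rose. Not every member had a window, so a missing match can also mean a missing window. Most members with a motif did not pass.

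Genes around the chain were read from lists. Of all tested genes, 0.944% rose, 0.561% fell and 46.9% had a positive log2 fold change. At an unadjusted p under 0.05 in limma, 11.2% of all tested genes were higher and 11.1% lower. Among assembly factors of complexes II to V, 1 of 37 tested genes rose and none fell, with a median log2 fold change of 0.17 and 30 positive. The one that rose was Sdhaf4, the chaperone of flavin-loaded Sdha, at 39.6, 39.8 and 39.1 FPKM after saline and 50.6, 48.6 and 49.4 FPKM after morphine (log2 fold change 0.32, limma adjusted p = 0.0462). Its groups did not overlap. After TPM scaling none of the list was higher and 1, Taco1, a translational activator of Cox1, was lower, after quantile normalization none passed either way, and with median centring 6 were higher. Among 10 tested genes that work with complexes IV and V and fall outside the rule none passed, with a median of 0.15. Atpif1, the inhibitor of ATP synthase, was at 472 and 580 FPKM, and Usmg5, a small subunit of ATP synthase, at 688 and 828 FPKM after saline and morphine (limma adjusted p = 0.0545 and 0.0557). In that list 6 genes had an unadjusted p under 0.05 in the higher direction.

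For the citric acid cycle, none of the 19 tested genes passed in limma, 3 were higher and 4 lower at an unadjusted p under 0.05, and the median log2 fold change was -0.060. After TPM scaling 3 were lower, and with median centring 2 were higher. Idh2, the mitochondrial NADP-dependent isocitrate dehydrogenase, was at 25.6 FPKM after saline and 33.9 FPKM after morphine, with groups that did not overlap (limma adjusted p = 0.0616). Of 12 regulators of respiratory genes none passed in limma, 2 were higher and 2 lower at an unadjusted p under 0.05, and the median was -0.045. For both lists, the shares of all tested genes at that unadjusted p were 11.2% higher and 11.1% lower. After TPM scaling 2 were lower. Polrmt, the mitochondrial RNA polymerase, was at 17.6 and 24.5 FPKM, and Tfam, which packages and transcribes mitochondrial DNA, at 20.5 and 14.9 FPKM after saline and morphine (limma adjusted p = 0.0984 and 0.103).

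Among the cell type lists, neurons (12 tested genes, led in level by Snap25 and Nefm) had a median log2 fold change of -0.061. In that list 1 gene rose, against 0.944% of all tested genes. It was Pvalb, a calcium buffer of fast neurons, from 100.2 to 125 FPKM (limma adjusted p = 0.0495). The medians were -0.53 for motor and cholinergic neurons (led by Prph and Chodl), 0.072 for oligodendrocytes (with Mbp), -0.080 for astrocytes (S100b and Gfap), -0.065 for microglia (with C1qa) and -0.31 for pericytes and vascular smooth muscle (Vtn and Rgs5). The red cell list (Hbb-bs and Hba-a1) had a median of -0.84, and the 2 tested skeletal muscle genes, Mylpf and Acta1, one of 0.42. With the motor neuron level as a covariate, 16 members were higher and 1 lower in place of 6 and 1, and 501 and 376 of all tested genes were, in place of 138 and 82. The pericyte and smooth muscle list summed to between 95.4 and 105 FPKM after saline and between 71.3 and 92.0 FPKM after morphine, and the part of these cells in the levels of Cox4i2 and the other members was not tested.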

How the data were processed

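Total RNA from lumbar cord was sequenced with a stranded kit, per the labels. Reads were processed with RSEM, STAR, Trimmomatic and bcl2fastq 2.19.0 on mm10, per the submitters' processing notes. Other versions, the annotation and whether strand was used are not given there. The authors deposited FPKM per gene, used here without rescaling. Genes of at least 1 FPKM in at least 3 of 6 libraries were tested on log2(FPKM + 1), so that fold changes are on that scale, with a two-sided test that let the variance follow intensity (limma 3.58.1, R 4.3.3), with Benjamini-Hochberg adjustment over all 14614 tested genes and a threshold of 0.05. Cox6a2 and Cox8c were under this filter. The test was tried on simulated data (14614 genes).

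Depth was estimated from FPKM steps of single-transcript genes (300 to 1500 nt) with at most 6 fragments: 77.6% to 80.4% of values lay within 0.05 of whole fragments, against 12.7% to 17.0% for an even spread. The fragment counts of low isoforms follow from this estimate. Lengths, coding sequences and coordinates came from GENCODE M21, promoters from RefSeq, and copies from BLAST 2.17.0. Other steps used matplotlib 3.10.9, NumPy 2.4.6, pandas 2.3.3 and SciPy 1.17.1 under Python 3.11.15. No count test was run, since FPKM values are not counts.

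Named with values were members that passed, in each complex the 2 with the highest level and the 2 with the smallest p, all isoforms, and from each other list up to 3 genes that passed or else the 2 with the smallest p, or for cell types the 2 with the highest level. Some genes that this rule names are not reported here. The other members were named after their values were seen. The members, lists and tests were chosen with earlier results of these data known. Alternatives were another pseudocount, filter, scaling and variance trend, removal of length trends, a replicate block, a motor neuron covariate and leaving out each library. The coding length trend, the sum with copies, and TPM without genes that match mitochondrial transcripts were added after the data were seen.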

Additional observations from a re-analysis of the deposited data

How the results depend on the processing

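All settings rest on the same 6 libraries, and with folds near 1.2 a call turned on small shifts. The median of the members stayed positive in every setting, and Sdha stayed negative. Members higher and lower numbered 6 and 1 with the deposited values, 0 and 0 without the filter, without the intensity trend and with the coding length trend removed, 1 and 0 with the exonic length trend removed, 1 and 1 after TPM scaling, 0 and 1 after quantile normalization, 22 and 1 with median centring, 16 and 1 with the motor neuron covariate, and 2 and 1 after TPM scaling without mitochondrial-like genes. Leaving out 1 library gave 0 to 16 higher and 0 to 1 lower members. The cause of these shifts was not tested.

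Over all tested genes, the calls higher and lower numbered 6 and 2 without the filter, 231 and 107 with a filter of 5 FPKM, 101 and 853 after TPM scaling, 47 and 55 after quantile normalization, 518 and 144 with median centring, 14 and 19 with the exonic length trend removed, 4 and 9 with the coding length trend removed, 14 and 22 without the intensity trend, 501 and 376 with the motor neuron covariate, and 108 and 410 after TPM scaling without mitochondrial-like genes. Leaving out 1 library gave 0 to 531 higher and 1 to 274 lower, the upper ends without morphine 2. With any other library left out, 0 to 4 were higher and 1 to 4 lower.

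The replicate numbers of the titles were also fitted as a replicate block. It gave 1 member higher (Uqcrq) and 0 lower, and 17 and 7 of all tested genes. The deviations of same-numbered libraries from their group means correlated at -0.13, 0.16 and 0.29 for numbers 1, 2 and 3. Saline 1 correlated best with morphine 2 (0.24), and saline 2 and saline 3 with the morphine library of their own number. Whether the numbers mark pairs is not stated, and so few libraries cannot settle it. The main test did not take them as pairs.

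The medians of all members and of complexes II, III, IV and V and the value of Cycs were 0.079, -0.057, 0.12, 0.078, 0.092 and -0.034 after TPM scaling, and 0.12, -0.015, 0.16, 0.12, 0.13 and 0.0087 when mitochondrial-like genes were left out of it. For all members and complexes II to V they were 0.041, 0.0024, 0.093, 0.024 and 0.041 after quantile normalization, 0.099, -0.023, 0.099, 0.056 and 0.14 with the exonic length trend removed, and 0.083, 0.012, 0.10, 0.021 and 0.12 with the coding length trend removed, which put Cycs at -0.061. With median centring all members had 0.23 and complex IV 0.23. The regulators had 0.011 with the exonic length trend removed.

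No member that passed changed sign. The members that did were, after TPM scaling, Atp5a1 (-0.015), Atp5c1 (-0.040), Atp5f1 (-0.048), Atp5g1 (-0.041), Atp5g2 (-0.048), Cox7b (-0.014), Cyc1 (-0.046), Cycs (-0.034), Sdhd (-0.12), Uqcrc1 (-0.054) and Uqcrc2 (-0.12). Without mitochondrial-like genes in that scaling they were Atp5f1 (-0.0050), Atp5g2 (-0.0059), Cyc1 (-0.0039), Sdhd (-0.080), Uqcrc1 (-0.011) and Uqcrc2 (-0.079). After quantile normalization they were Atp5a1 (-0.024), Atp5c1 (-0.056), Atp5f1 (-0.067), Atp5g1 (-0.073), Cox6b1 (-0.0029), Cox7b (-0.051), Cox8b (0.015), Cyc1 (-0.0048), Sdhd (-0.056), Uqcrc1 (-0.039) and Uqcrc2 (-0.080). The exonic length trend turned Atp5g2 (-0.019), Cox7b (-0.012), Cox7b2 (-0.087), Sdhd (-0.12) and Uqcrc2 (-0.035), and the coding length trend Atp5g1 (-0.038), Atp5g2 (-0.037), Cox6b1 (-0.010), Cox7b (-0.072), Cox7b2 (-0.091), Cycs (-0.061) and Sdhd (-0.098). Median centring turned Cox8b (0.0087), and the motor neuron covariate Cox8b (0.23), Sdhd (-0.0092) and Uqcrc2 (-0.010). Leaving out 1 library at a time turned the sign at least once of Cox7a1 (-0.20 to 0.099), Cox7b2 (-0.013 to 0.16), Cox8b (-0.27 to 0.14), Sdhd (-0.041 to 0.049) and Uqcrc2 (-0.021 to 0.031).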

Other observations

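The table lists nuclear genes that match mitochondrially encoded subunits of complexes IV and V, and it lists no mitochondrially encoded gene. On chromosome 1, Gm29216 matches mt-Co1, Gm28661 mt-Co2, Gm28437 mt-Co3 and Gm10925 mt-Atp6, over the stretch each shares, with 99.8% identity for the first and 100% for the other 3, so that fragments of the 2 sources cannot be told apart. Gm29216 was at 29286, 32116 and 29489 FPKM after saline and 38971, 37404 and 37296 FPKM after morphine, with groups that did not overlap. Its log2 fold change was 0.32, and those of Gm28661, Gm28437 and Gm10925 were 0.26, 0.27 and 0.33. None of the 4 passed (limma adjusted p = 0.0523, 0.0818, 0.0713 and 0.0581). The 15 genes that match any mitochondrially encoded transcript include these and others, such as matches of complex I genes. Together they held 21.6%, 22.8% and 21.5% of all FPKM after saline and 25.2%, 24.3% and 23.2% after morphine. With the columns scaled to TPM without these genes, the median of the members was 0.12, that of all tested genes -0.10, and Uqcrq and Cox6c rose.

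Genes that the naming rule left out were also listed. Atp5k-ps2, a pseudogene of the gene for subunit e, was at 1.46, 1.20 and 1.48 FPKM after saline and 5.88, 1.76 and 6.83 FPKM after morphine. Morphine 2 lay near the saline values and the gene did not pass (limma adjusted p = 0.129). Atp5s was at 17.9 and 18.7 FPKM and Atp5sl at 28.5 and 30.1 FPKM after saline and morphine, with overlapping groups. Gm10221, the copy of Atp5l, rose with a log2 fold change of 0.48 (limma adjusted p = 0.0465).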
